A study of Mus musculus with 2 samples.

Results

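The *Tcf7*, *Tcf7l1*, *Tcf7l2*, *Lef1*, *Ctnnb1*, *Sp5*, *Bcl9*, *Bcl9l*, *Pygo2* and *Tle1* genes encode the nuclear end of the canonical WNT pathway. These 10 genes were chosen by name among the 29924 gene names on the array, and all 18 probes that carry one of the names were used, of 39429 probes in all. RNA was compared between ureters of newborn (P0) wildtype NMRI mice that were explanted and kept in culture for 18 h. The medium held either 5 µM IWP-2 or its solvent, DMSO, at 1:1000. IWP-2 inhibits Porcupine, the acyltransferase that WNT proteins need for their secretion. The comparison was made on 2 two-colour arrays, in which a DMSO pool and an IWP-2 pool shared an array. Replicate 1 held pools of female ureters with IWP-2 in red, and replicate 2 held pools of male ureters with IWP-2 in green. Sex and dye orientation therefore cannot be told apart. Each channel was 1 pool of several ureters, so the spread between the 2 arrays is the only replicate error. The standard errors given below rest mostly on a variance borrowed from all probes tested, and less on that spread.

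In the canonical pathway a secreted WNT protein binds its receptors, β-catenin (*Ctnnb1*) escapes degradation and enters the nucleus, and there it binds the TCF and LEF proteins that sit on DNA. BCL9, BCL9L and PYGO2 join that complex as coactivators, and TLE proteins hold the TCF and LEF proteins in a repressing state when β-catenin is absent. *Sp5* encodes a zinc-finger factor and is a well-known direct target of the pathway, and *Tcf7* and *Lef1* are themselves known targets in many tissues. In the developing ureter WNT signals come from the epithelium and act on the surrounding mesenchyme.

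Each probe is a 60-base oligonucleotide that was spotted 4 times on an array. One *Lef1* probe is shown because its 60 bases extend over 18162 bases of genome, so that it joins separate exons and reads spliced RNA. It lies on the plus strand at chr3:130907851-130926012 of mm9, the build of the array files.
*Lef1* probe 2: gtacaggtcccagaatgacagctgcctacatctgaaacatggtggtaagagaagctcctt

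The 250 bases before the *Sp5* start site are shown because *Sp5* had the lowest ratio of the 10 genes and because this window holds letters that TCF and LEF proteins are known to bind. The sequence is from RefSeq (GRCm38.p6, chr2:70474673-70474922, plus strand), and capitals mark matches to 1 of 4 motifs of 7 letters, searched on both strands. These were the motif CTTTGAA, the variant CTTTGAT, the variant CTTTGTA and the variant CTTTGTT, which cannot overlap one another on a strand.
*Sp5* upstream window: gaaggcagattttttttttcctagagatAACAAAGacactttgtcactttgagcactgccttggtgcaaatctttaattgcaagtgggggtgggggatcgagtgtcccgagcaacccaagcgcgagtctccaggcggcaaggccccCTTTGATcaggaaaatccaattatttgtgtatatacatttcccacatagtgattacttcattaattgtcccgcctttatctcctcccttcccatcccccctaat

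The window held 2 matches, CTTTGTT on the minus strand starting 222 bases before the start site and CTTTGAT on the plus strand starting 104 bases before it. More than 1 match was found in 1.43% of the 32851 windows of that length in the table, and any match in 14.8%. Windows were listed for 9 of the 10 genes, 17 windows in all. A match in at least 1 window was found for 3 genes, beside 4527 of all 27025 genes with a window (16.8%). These shares of genes are not alike, because the members had more windows per gene than the 32851 windows of the 27025 genes. Each of the 3 genes had a match in 1 window only, among the 17, beside 14.8% of all windows. *Lef1* had 1 match, CTTTGTA, in the most downstream of its 4 windows, and *Tcf7l2* had 1 match, CTTTGTT, in the more downstream of its 2 windows. Neither *Tcf7* window held a match. These matches describe letters and not binding.

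*Tcf7*, *Lef1* and *Sp5* were lower with IWP-2 in both arrays, and both IWP-2 signals of each of their 5 probes lay below both DMSO signals. Groups that were apart in this way, with IWP-2 lower, were found at 16.2% of all 24180 probes not at the floor, and with IWP-2 higher at 16.1%, where the members had 3 of 18. The other 7 genes, *Ctnnb1* among them, had mean log2 ratios of IWP-2 over DMSO between -0.06 and 0.17 over their 13 probes. A fold filter like that of the study was applied to the signals as normalised here, asking for a DMSO signal above 100 and a change of at least 1.5-fold in each array. These signals are on a scale of their own, so the filter need not take the same probes as the study's. On it, 10 of the 18 probes were bright enough, 2 passed as lower and 0 as higher. Both were the *Tcf7* probes. Among all 17961 probes bright enough for the filter, 0.323% passed as lower and 0.0779% as higher.

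**Figure D1:**
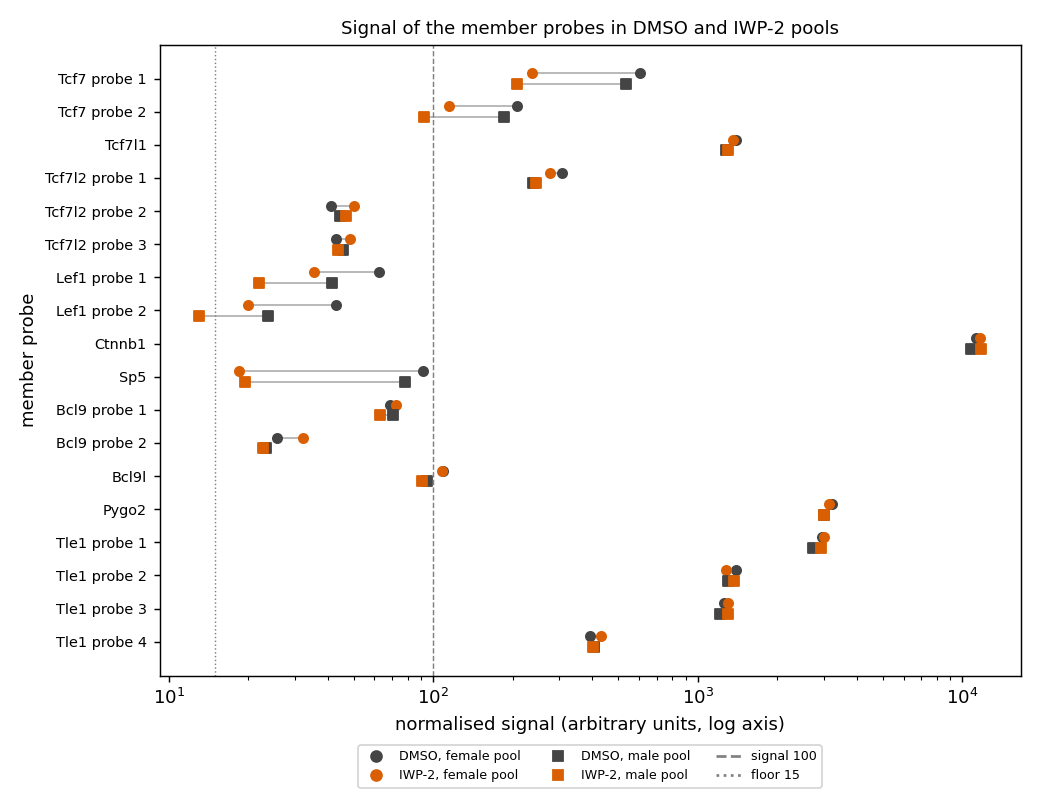
Normalised signal (x axis, arbitrary units, log scale) of the 18 member probes (y axis) in the DMSO and IWP-2 pools of each sex, with grey lines joining the pools of 1 array. The 5 probes of *Tcf7*, *Lef1* and *Sp5* sit further left with IWP-2 in both arrays, and signals are to be read along a row only, since different probes are not comparable in level.

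The statistical test depends on how the dimmest probes are handled. limma fitted over all 26849 probes well above background called 0 of the 18 member probes and 0 probes in all (0% called), with a smallest Benjamini-Hochberg adjusted p of 0.445. At an unadjusted p under 0.05, 2965 probes and 4 of the member probes were found. Of the 26849 probes, 2669 lay at the floor of 15 in all 4 channels, which makes their log2 ratio exactly 0 in both arrays and their variance 0. A second fit that left these out was added after the first had been seen to call none, so its calls were not planned and are given beside the first. It tested 24180 probes and called 84 lower (0.347%) and 19 higher (0.0786%). Among the 18 member probes it called 4 lower and 0 higher, namely the *Sp5* probe, both *Tcf7* probes and 1 of the 2 *Lef1* probes. Other settings of the fit over all probes also gave calls on the members. With normexp background correction 5 of the 18 were lower, beside 170 of all 26849 probes (0.633%). With a floor of 1 it was 2 (*Sp5* and the brighter *Tcf7* probe), beside 48 of 26849 (0.179%). With only probes of a signal above 100 it was 2 (both *Tcf7* probes, with *Sp5* and *Lef1* too dim to be tested), beside 100 of 18403 (0.543%).

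**Figure D2:**
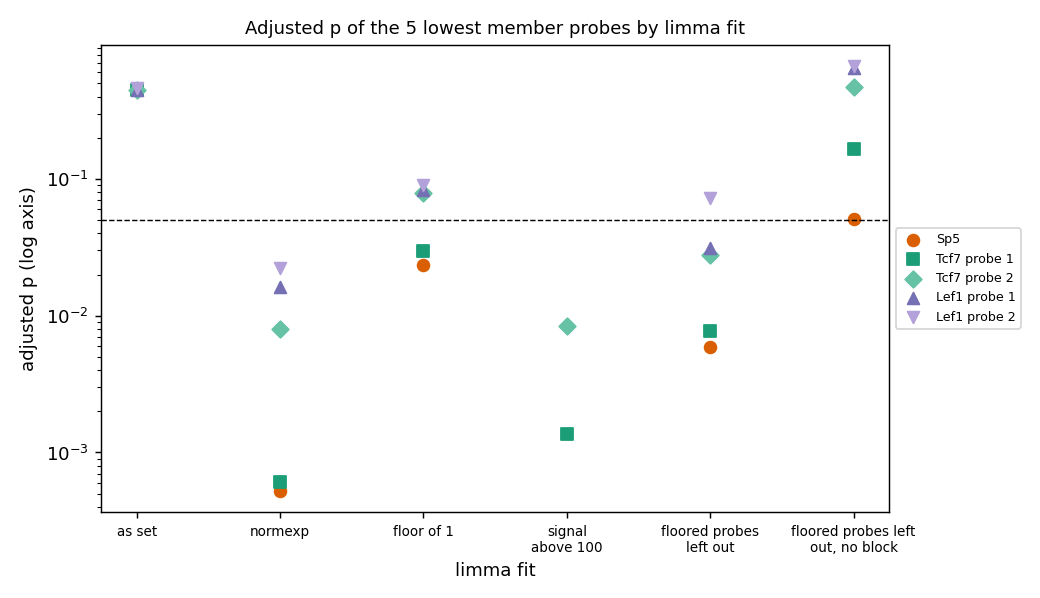
Adjusted p (y axis, log scale) of the 5 lowest member probes under 6 limma fits (x axis), with a dashed line at 0.05. All 5 lie at 0.445 to 0.459 in the fit over all probes, and all 5 lie below the line with normexp background correction.

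*Tcf7* encodes TCF1, a TCF factor that carries both activating and repressing isoforms. Its brighter probe (chr11:52066114-52066173, mm9, minus strand) had signals of 607 and 534 in the female and male DMSO pools and of 237 and 207 in the IWP-2 pools. Both IWP-2 signals were below both DMSO signals, and the ratios of the 2 arrays were nearly the same, at -1.36 and -1.37 on the log2 scale. The mean was -1.36 (SE 0.0713, n = 2 arrays), or 38.9% of the DMSO signal, with an adjusted p of 0.445 in the limma fit over all probes and 0.00768 in the limma fit without floored probes. Over the alternatives of the second fit the adjusted p ran from 0.000613 to 0.166, and 9 of 10 called it. The other *Tcf7* probe (chr11:52066738-52066797) went from 208 to 115 in the female pair and from 186 to 92.5 in the male pair. Its mean was -0.93 (SE 0.0777, n = 2 arrays), a smaller decrease than at the brighter probe, with limma adjusted p of 0.445 over all probes and 0.028 without floored probes (0.00797 to 0.467 over the alternatives). The probes therefore gave the same direction and different sizes for 1 gene.

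*Lef1* encodes the founding LEF factor, a partner of β-catenin in mesenchyme. Its brighter probe (chr3:130926200-130926259, mm9, plus strand) had DMSO signals of 62.2 and 41.6 and IWP-2 signals of 35.3 and 22. The IWP-2 signals were again the lower ones, although the male DMSO pool was close to the female IWP-2 pool. The mean log2 ratio was -0.87 (SE 0.0746, n = 2 arrays), or 54.8% of the DMSO signal. The limma adjusted p was 0.445 over all probes and 0.0312 without floored probes (0.0161 to 0.652 over the alternatives of that fit). The exon-joining probe whose sequence is given above went from 43.1 to 19.9 in the female pair and from 23.7 to 13 in the male pair. Its mean was -0.89 and its arrays differed more, at -1.11 and -0.66. It was not called by limma over all probes (adjusted p = 0.459) or without floored probes (adjusted p = 0.0731, and 0.0222 to 0.67 over the alternatives). The male IWP-2 signal of this probe lies under the floor of 15, and the mean was -0.99 when the floor was 1. With normexp correction the decreases were smaller, with means of -0.61 at the brighter *Lef1* probe and -0.58 at the exon-joining one. All *Lef1* signals were under 100, so the fold filter did not test the gene.

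*Sp5* had the lowest ratio of the 18 probes. Its probe (chr2:70315688-70315747, mm9, plus strand) had DMSO signals of 91.6 and 78.2 and IWP-2 signals of 18.5 and 19.5. Both IWP-2 pools were close to each other and far below both DMSO pools. The mean log2 ratio was -2.16 (SE 0.097, n = 2 arrays), with -2.31 in the female and -2 in the male pair, and the signal was 22.4% of that with DMSO, or 4.46-fold lower. It ranked 8 from the lowest among 24180 probes. The limma adjusted p was 0.445 over all probes and 0.00592 without floored probes, and 8 of 9 alternatives of the second fit called it (0.000522 to 0.0513). With normexp correction the mean was -1.59. That correction adds an offset of 50 to all signals, which shrinks ratios most where signals are dim. The DMSO signals lay just under 100 on the scale used here, so the fold filter missed the gene at 100, while with a DMSO signal above 50 it took 3 member probes, *Sp5* and both *Tcf7* probes.

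**Figure D3:**
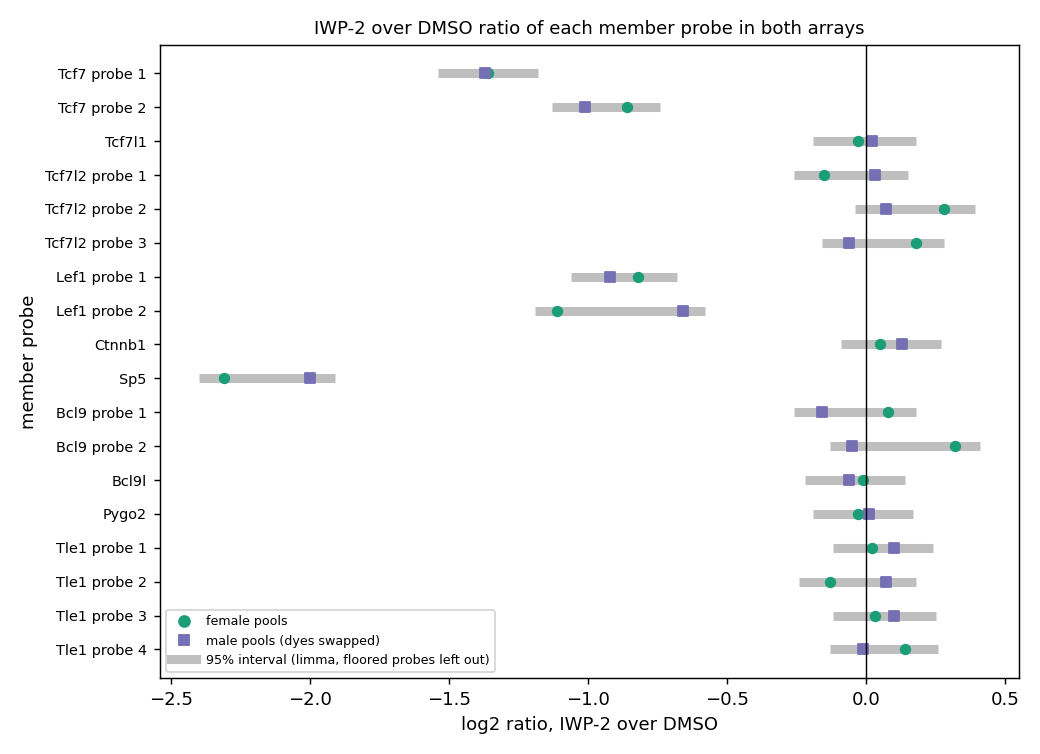
Log2 ratio of IWP-2 over DMSO (x axis) of each member probe (y axis) in the female and the male pair, with the 95% interval of the mean from limma without floored probes as a grey bar. The 5 probes of *Tcf7*, *Lef1* and *Sp5* lie between -2.31 and -0.66 in single arrays, and the intervals of the other 13 probes include 0.

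The other TCF factors did not pass the test in either fit. *Tcf7l1* encodes TCF3, which acts mostly as a repressor. It had DMSO signals of 1390 and 1280 and IWP-2 signals of 1360 and 1300, and the groups overlapped. Its mean log2 ratio was 0 with a 95% interval of -0.19 to 0.18 (limma without floored probes), so a decrease of the size seen at *Tcf7* lies outside the interval. *Tcf7l2* encodes TCF4 and had 3 probes from different places of the gene. The brightest (chr19:56006638-56006697, mm9) had DMSO signals of 306 and 239 and IWP-2 signals of 276 and 245, for a mean of -0.06. The other *Tcf7l2* probes were dim, with signals of 41.2 to 50 at one and 43 to 48.5 at the other, and their means were 0.17 and 0.06. The groups overlapped at the brightest and the third probe and were apart at the second, with IWP-2 higher. The adjusted p of the 3 probes lay between 0.493 and 0.922 in limma without floored probes.

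β-catenin itself was measured by 1 bright probe. *Ctnnb1* had DMSO signals of 11300 and 10800 and IWP-2 signals of 11700 and 11800. Both IWP-2 signals were above both DMSO signals, by a mean log2 ratio of 0.09 with a 95% interval of -0.09 to 0.27. The adjusted p was 0.762 in limma without floored probes and 0.538 over all probes. The arrays measure *Ctnnb1* RNA and not the protein, whose stability is the regulated step of the pathway.

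The coactivators were close to their DMSO levels. *Bcl9* and *Bcl9l* encode adaptors that link β-catenin to PYGO proteins, and *Pygo2* encodes one of these PHD-finger proteins. The brighter *Bcl9* probe had DMSO signals of 68.4 and 70.6 and IWP-2 signals of 72.4 and 63.2, so that the 2 arrays pointed in opposite directions, at 0.08 and -0.16. The other *Bcl9* probe went from 25.7 to 32.1 in the female pair and from 23.4 to 22.7 in the male pair. Its mean log2 ratio was 0.14, with the widest 95% interval of the 4 probes, -0.13 to 0.41. *Bcl9l* had 109 and 94.6 with DMSO and 108 and 90.6 with IWP-2, and *Pygo2* had 3210 and 2990 with DMSO and 3140 and 3010 with IWP-2. The 95% intervals of the means reached from -0.26 to 0.18 for the brighter *Bcl9* probe, from -0.22 to 0.14 for *Bcl9l* and from -0.19 to 0.17 for *Pygo2*. None of the 4 probes was called by limma in either fit.

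*Tle1* encodes a Groucho-type corepressor and was read by 4 probes. The brightest had DMSO signals of 2960 and 2720 and IWP-2 signals of 3010 and 2910. The mean log2 ratios of the 4 *Tle1* probes were 0.06, -0.03, 0.07 and 0.06, and their 95% intervals together covered -0.24 to 0.26. The second probe pointed down in the female pair (-0.13) and up in the male pair (0.07). No *Tle1* probe was called in either limma fit.

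Over the 18 member probes the median log2 ratio was -0.02, beside 0 over all 24180 probes, and 6 of the 18 were below 0 in both arrays, beside 6716 of 24180. The spread was wider among the members, with an SD of 0.65 against 0.181, and the lower end of that spread was *Sp5*, *Tcf7* and *Lef1*. With 1 probe a gene, 3 of the 10 members were called lower in limma without floored probes, beside 0.397% of 18149 genes, and 0 were called higher, beside 0.0716%.

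**Figure D4:**
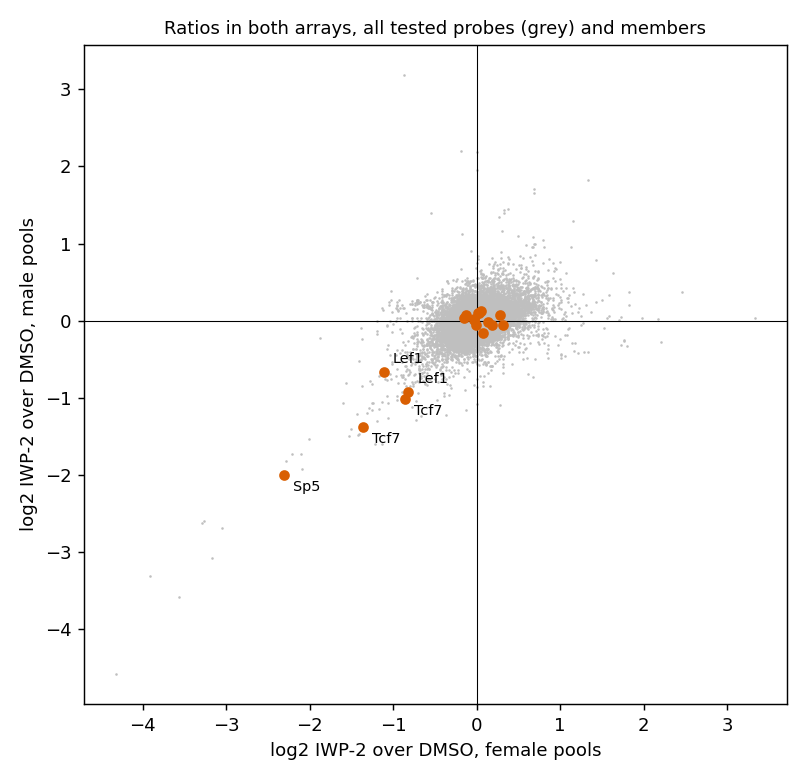
Log2 ratio of IWP-2 over DMSO in the female pair (x axis) and the male pair (y axis) for the 24180 probes not at the floor (grey) and the 18 member probes (orange). The *Sp5*, *Tcf7* and *Lef1* probes lie on the lower left, away from the grey cloud, and the other 13 lie within it.

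The genes whose pair of ratios was nearest to that of *Tcf7*, by Euclidean distance over the 2 arrays, were *Eddm3b* (distance 0.11), *Moxd1* (0.12) and *Gdpd2* (0.15). *Moxd1*, which encodes a relative of dopamine β-hydroxylase, had log2 ratios of -1.42 and -1.48. Nearest to *Sp5* were *Tmem132c* (0.18), *Pnliprp1* (0.24) and the T-box factor gene *Tbx4* (0.29), whose ratios were -2.21 and -1.73. A likeness over 2 arrays is a description of these values.

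The rest of the nuclear and cytoplasmic machinery was followed with lists of relatives, using the brightest probe of each gene. In limma over all probes 0 of the listed genes were called. In limma without floored probes, 0 of 19 corepressors and inhibitors were called (median log2 ratio -0.02) and 0 of 17 coactivators (median -0.05). It called 0 of 20 genes of the destruction complex that degrades β-catenin (median -0.01). In the adherens junction, the other place where β-catenin is bound, 0 of 14 genes were called (median -0.07). Over all 18149 genes that fit called 0.397% lower and 0.0716% higher. At that share a count of 0 does not set lists of this size apart from other genes. The corepressor *Tle3* had DMSO signals of 2100 and 2120 and IWP-2 signals of 1840 and 1950, a mean of -0.15 (adjusted p = 0.477). *Tle4* stood at 0.03 and *Ctnnbip1*, which encodes the β-catenin inhibitor ICAT, at 0.06. *Pygo1*, the relative of *Pygo2*, had a mean of 0.03. *Med13* and *Kmt2a* lay at the floor and gave no ratio.

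The last list held genes that WNT signalling is known to raise or that feed back on it. In limma without floored probes 6 of 19 were called lower and 0 higher, with a median of -0.21. Over all 18149 genes 0.397% were called lower and 0.0716% higher, with a median of -0.01. The planned fit over all probes called 0 of the list. *Axin2*, the most used readout of the pathway, went from 181 to 42.2 in the female pair and from 154 to 46.7 in the male pair, a mean of -1.91 (adjusted p = 0.00926). A second, dimmer *Axin2* probe had a mean of -0.32 (adjusted p = 0.221), with ratios of -0.43 and -0.2. Its DMSO signals of 20.2 and 17.3 lay close to the floor of 15, which leaves little room for a decrease. That probe therefore cannot show whether the size differs between the *Axin2* probes. *Lgr5*, an R-spondin receptor gene, had a mean of -3.12 (adjusted p = 0.00044). Its IWP-2 signals were 14.5 and 18.6, so the female ratio of -3.17 was set by the floor of 15. The secreted antagonist gene *Wif1* had a mean of -1.33 (adjusted p = 0.0441). *Rnf43*, which encodes a ubiquitin ligase for WNT receptors, had a mean of -0.8 (adjusted p = 0.0382). *Tnfrsf19* and *Notum*, named after their values were seen, were the other 2. *Sp5*, *Tcf7* and *Lef1* had mean ratios in the range of these 6 genes, from -3.12 (*Lgr5*) to -0.69 (*Notum*). The 13 genes not called ran from *Nkd1* (-0.79, limma adjusted p = 0.0648) to *Cd44* (0.29, adjusted p = 0.206). Between them lay *Apcdd1* (-0.54, adjusted p = 0.0749), *Ccnd1* (-0.17) and *Myc* (-0.05). A second, dimmer *Nkd1* probe was called lower by that fit, with a mean of -0.75 (adjusted p = 0.0485).

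**Figure D5:**
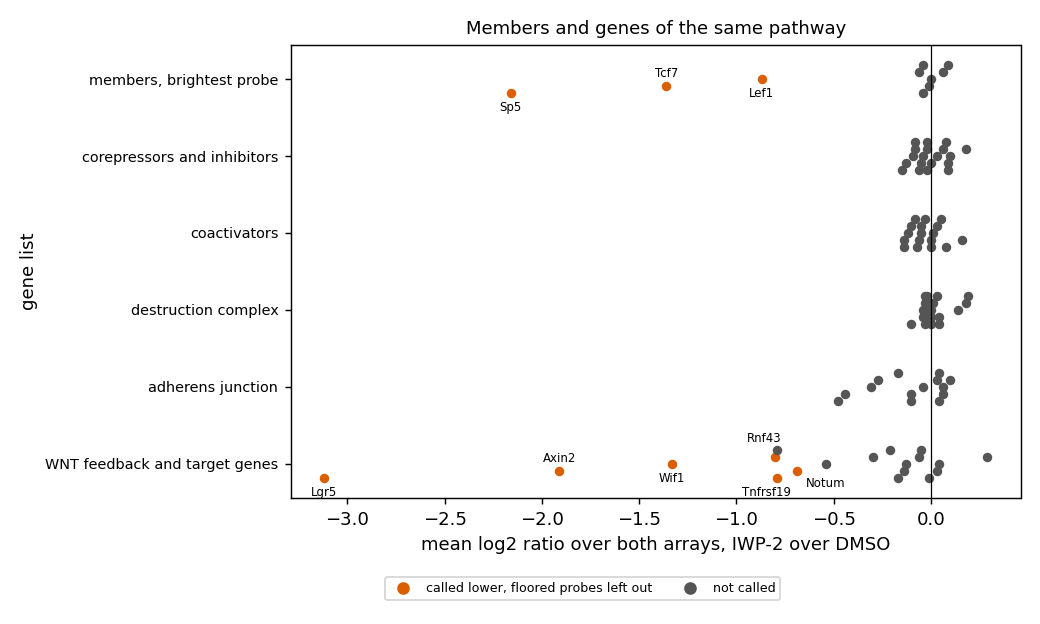
Mean log2 ratio over both arrays (x axis) of the 10 members and of the genes in 5 lists (y axis), brightest probe of each gene. Orange genes were called lower in limma without floored probes, which is 3 members, 6 WNT feedback and target genes, and 0 genes in the other 4 lists.

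In whole ureters, fewer cells of a type and less RNA per cell cannot be told apart. The lamina propria marker *Aldh1a2* had DMSO signals of 1690 and 1460 and IWP-2 signals of 995 and 1030 (mean -0.63, adjusted p = 0.0817 in limma without floored probes). All 6 proliferation genes had means below 0, from -0.39 for *Mki67* to -0.21 for *Pcna*, with summed signals of 19600 to 19800 with DMSO and 15700 to 16500 with IWP-2. None of the 6 was called. For the 7 smooth muscle markers the female pair summed to 86500 with DMSO and 85900 with IWP-2. The male pair summed to 74500 and 85700. The 8 urothelial markers went from 106000 to 137000 in the female pair and from 129000 to 136000 in the male pair. No marker of either list was called. Levels of different probes are not comparable, so a sum mainly follows its brightest probes. The part of these differences in the ratios of *Tcf7*, *Lef1* and *Sp5* was not tested. *Tcf7* and *Lef1* are also known from T lymphocytes, and the T cell markers *Cd3d*, *Cd3g* and *Cd8a* were not well above background. The T cell genes *Cd3e* (89.4 to 113 over the 4 channels), *Cd4* (354 to 1210) and *Lck* (252 to 298) were well above background, with mean log2 ratios of 0.04, -0.12 and -0.01. The lymphocyte list summed to 711 with DMSO and 768 with IWP-2 in the female pair. In the male pair it summed to 1640 and 1330, and 0 of its 3 tested genes were called. The 4 kidney epithelium markers were not well above background.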

How the data were processed

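The deposited scanner files hold processed signal intensities, background-subtracted and dye-normalized by the authors' facility with Agilent Feature Extraction (10.7.3.1 per the labels, 12.2.0.7 per the file headers). The mean and local background intensities in the authors' files were used for the normexp alternative. The deposited log10 ratio of red over green served to check directions, and the deposited series table, a score that holds signed fold changes, served as an alternative. Control spots (17263) and outlier-flagged spots (3.32% and 3.22%) were left out, and 0 spots were saturated. Signals were loess-normalized within arrays (span 0.3), averaged over spots, floored at 15 and expressed as log2 (R 4.3.3, limma 3.58.1). Ratios were tested against 0 with lmFit and eBayes, which leaves 1 residual degree of freedom, at a Benjamini-Hochberg adjusted p of 0.05. The fit as designed kept probes well above background in both arrays in either group's channel. Because it called 0 probes, a fit without the 2669 probes at the floor in all 4 channels was added after seeing the data. Its prior degrees of freedom were 4.37, against 0.615. Standard errors and intervals come from the added fit.

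The 10 members and the lists were chosen with earlier results of these data known. The naming rule covered all members, up to 4 called genes of each list, 5 fixed relatives, and the 3 nearest genes to *Tcf7* and *Sp5*. Cell type markers came from lists of their own. Other listed genes were named outside this rule with their values known, namely *Tnfrsf19*, *Notum*, *Nkd1*, *Apcdd1*, *Cd44*, *Ccnd1*, *Myc*, *Med13* and *Kmt2a*. The number of arrays limits the precision. With 4.37 prior and 1 residual degrees of freedom, standard errors and p-values of the added fit rest mostly on a variance borrowed from all probes tested. The spread of a probe between its own 2 arrays has the smaller part, and no other replication enters. Probe coordinates are those of the files (mm9), and no exon annotation of that build was used here.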

Additional observations from a re-analysis of the deposited data

Results flagged for a closer look

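A pair of member probes had ratios of opposite sign in the arrays, each more than 2 standard errors over its spots from 0. The brighter *Bcl9* probe had log2 ratios of 0.08 in the female and -0.16 in the male pair, a difference of 0.24 with standard errors over spots of 0.0407 and 0.045. The second *Tle1* probe had -0.13 and 0.07, a difference of -0.2 with standard errors of 0.0104 and 0.0162. Spots of 1 array share their RNA, so these errors are technical. The difference between the pairs was not tested, and sex and dye orientation cannot be told apart.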

How the results depend on the processing

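The limma calls on *Tcf7*, *Lef1* and *Sp5* depend on the processing. Over all probes, 0 member probes were lower as designed, 5 with normexp correction, 2 with a floor of 1, 2 with a signal above 100 and 4 with floored probes left out, a fit chosen after seeing the data. All probes called lower in the same settings were 0, 170, 48, 100 and 84. The listed pathway genes called lower were 0, 8, 2, 8 and 6. Leaving out probes at the floor in either array, also tried after seeing the data, called 4 member probes and 6 listed genes lower among 23721 probes. In the other 7 planned settings of that fit the member count was again 0, and no setting called a member higher. With floored probes left out, the 4 lower member probes became 2 with a floor of 1, 2 with a signal above 100, and 0 with no replicate block. The 6 listed genes became 3 without loess, 2 with a floor of 1, 3 with the median over spots and 0 with no replicate block. Without the pairing of pools within arrays, *Sp5* had an adjusted p of 0.0513 and the brighter *Tcf7* probe 0.166 by limma. The fold filter took 5 member probes with a DMSO signal well above background in place of 100, and 1 at a fold of 2. The median of the 10 genes was -0.04, and -0.02 with normexp, -0.04 without loess, 0 with median centring, -0.05 with the median over spots, -0.03 in the series table and -0.03 in either array alone. Median centring turned *Pygo2* to 0.03 and the second *Tle1* probe to 0.01. It also moved the median over all probes not at the floor from 0 to 0.04, so these sign changes are not particular to the 2 genes. The cause of these shifts was not tested. Leaving out an array leaves no residual degrees of freedom, so only values were given.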
